A study of Mus musculus with 10 samples.

Results

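Nonclassical MHC class I genes were examined in 10 subcutaneous mouse tumors by bulk RNA sequencing. The members are the 8 symbols H2-T23, H2-T22, H2-Q4, H2-Q6, H2-Q7, H2-M3, Cd1d1 and Mr1, chosen by name, and all 8 were found among the 29890 genes of the expression table. All 10 tumors grew from B2905-M4 cells, a mouse melanoma line, of which 3000000 were injected under the skin of female C57BL/6J mice aged 7 to 8 weeks, and no animal received immunotherapy. The groups were 5 tumors overexpressing Adamts7, which encodes a metalloproteinase that cells secrete, and 5 tumors carrying a vector in its place. The promoter of the constructs and the number of clones are not given in the sources used here, and the labels do not say whether the tumors of a group came from separately made cell populations, so p-values measure only the spread between these tumors. Harvest was at day 35 for 2 Adamts7 tumors, day 45 for 3 tumors of each group and day 50 for 2 vector tumors, and no label ties a day or a size to a tumor.

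Classical MHC class I molecules show peptides from inside the cell to CD8 T cells. Nonclassical class I heavy chains have the same fold and mostly pair with the same light chain, beta-2 microglobulin, but vary little between individuals and show a narrower range of ligands to natural killer cells and to unconventional T cells. The classical and many nonclassical genes of the H2 complex are induced by interferon-gamma, through the transcription factor IRF1 and the class I transactivator NLRC5, among others.

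Expression is given in TPM, a level per transcript length scaled to the same total in each library, from which depth cannot be read. Tumors had 21515 to 23859 genes above 0. Of all genes listed, 15276 reached an average of 1 TPM and were tested with limma on log2(TPM + 1). "Called" below means a Benjamini-Hochberg adjusted p under 0.05 over those 15276 genes, and a log2 fold change is Adamts7 over vector tumors. The transcript Adamts7 itself stood at 74.8 to 96.0 TPM in 4 of the Adamts7 tumors, but at only 18.2 TPM in the tumor labelled Adamts7 5, against 6.49 to 28.3 TPM in the vector tumors, so that this 1 tumor had less of it than vector tumors 3 and 5. Vector tumors 3 and 5 had 6.13 and 274 TPM of the pigment gene Pmel, where every other tumor had 1107 TPM or more. For the members, fits without some or all of these 3 tumors are given as well. For several gene lists, medians without vector tumors 3 and 5 are given.

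The 300 bases around the transcription start, 250 before it and 50 after it, were taken from RefSeq (build GRCm38.p6) for 7 of the 8 members; Cd1d1 was not matched. H2-T23, H2-Q4, H2-M3 and Mr1 are shown because they carry the different kinds of interferon motif found, or none. Capitals mark the core of the interferon-stimulated response element in H2-T23 and the class I interferon consensus core in H2-Q4 and H2-M3, each searched on both strands. The second motif was chosen with the letters of these promoters known.
H2-T23 (chr17:36032652-36032951, minus strand): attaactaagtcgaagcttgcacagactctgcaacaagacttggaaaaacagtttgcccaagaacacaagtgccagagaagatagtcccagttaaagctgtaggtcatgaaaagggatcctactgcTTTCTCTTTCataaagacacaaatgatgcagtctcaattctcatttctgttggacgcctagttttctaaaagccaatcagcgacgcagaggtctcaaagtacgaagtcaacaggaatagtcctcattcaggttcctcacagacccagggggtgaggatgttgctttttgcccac
H2-Q4 (chr17:35379367-35379666, plus strand): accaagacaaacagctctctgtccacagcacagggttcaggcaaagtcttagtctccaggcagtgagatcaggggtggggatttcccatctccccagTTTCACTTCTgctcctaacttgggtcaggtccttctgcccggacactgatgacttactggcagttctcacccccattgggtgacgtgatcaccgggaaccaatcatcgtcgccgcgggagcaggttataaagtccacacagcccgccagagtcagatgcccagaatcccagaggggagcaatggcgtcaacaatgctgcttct
H2-M3 (chr17:37269984-37270283, plus strand): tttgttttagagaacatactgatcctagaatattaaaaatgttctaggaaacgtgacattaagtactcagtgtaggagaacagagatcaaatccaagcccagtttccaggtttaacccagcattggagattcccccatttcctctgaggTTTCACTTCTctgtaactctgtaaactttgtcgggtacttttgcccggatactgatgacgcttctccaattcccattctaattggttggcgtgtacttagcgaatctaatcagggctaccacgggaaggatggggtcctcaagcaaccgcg
Mr1 (chr1:155146765-155147064, minus strand): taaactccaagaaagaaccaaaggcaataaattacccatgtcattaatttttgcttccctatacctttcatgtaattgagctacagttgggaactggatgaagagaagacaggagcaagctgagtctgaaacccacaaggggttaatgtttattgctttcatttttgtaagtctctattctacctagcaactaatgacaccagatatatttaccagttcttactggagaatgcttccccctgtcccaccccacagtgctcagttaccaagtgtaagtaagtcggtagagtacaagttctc

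H2-T23 and H2-T22 held the response element core, which was found in 3.44% of 32851 promoter windows. H2-Q4, H2-Q6, H2-Q7 and H2-M3 held the consensus core, found in 0.155% of them and also in H2-K1 and H2-D1. No member held both. The first base of the motif lay 124 bases before the start in H2-T23, 191 in H2-T22, 153 in H2-Q4, 152 in H2-Q6, 113 in H2-Q7 and 101 in H2-M3. These distances depend on where RefSeq places the start. The H2-Q6 and H2-Q7 windows were 97.7% identical over 260 aligned bases, and their CCAAT also lay at different distances, 55 and 16 bases before the start. CCAAT or its reverse, the letters of the Y box, was in all 6 H2 members and in 37.4% of all windows. The class I kappa-B site was in H2-Q6 alone of the members, as well as in H2-K1 and H2-D1, and in 0.0852% of all windows. Mr1 held none of these motifs in this window. A match describes letters only.

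In coding sequence, taken from GENCODE M21, H2-Q6 and H2-Q7 were 95.4% identical over 981 aligned bases, and H2-T22 was 96.9% identical to H2-T10, which is not a member, over 1137. H2-Q4 was 90.6% identical to the classical gene H2-K1, and H2-T23 was 83.4% identical to it. H2-M3 stood at 73.8%, while Mr1 and Cd1d1, which lie outside the H2 complex, stood at 59.1% and 56.6%. How RSEM shares out reads that match more than 1 of these genes is an estimate, and the values of H2-Q6, H2-Q7 and H2-T22 are uncertain as to which copy they belong to. They are therefore also given as sums.

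Of the 8 members, 7 had a negative log2 fold change, as did 60.2% of tested genes, and Mr1 had one of 0.02. No member was called by limma, against 0.223% of tested genes, 0.196% called lower and 0.0262% called higher. At an unadjusted limma p under 0.05 there were 7 members, all lower, against 20.2% of tested genes in either direction and 15.3% lower. In 4 members, H2-T22, H2-Q4, H2-Q7 and H2-M3, every Adamts7 tumor lay below every vector tumor, as in 3.78% of tested genes, and in none did every Adamts7 tumor lie above, as in 1.11%. In the authors' deposited table, 7 of the 8 members were lower at an adjusted p under 0.05, against 5.48% of its 18796 genes with an adjusted p (2.48% were higher), and Mr1 was not. That table's fold changes are positive for Adamts7 itself, so they run Adamts7 over vector. In bulk samples, fewer cells of a type and less RNA per cell cannot be told apart, here and below. In the 7 members with a negative log2 fold change, the Adamts7 mean was between 0.196 times the vector mean, for Cd1d1, and 0.411 times, for H2-T22, and in Mr1 it was 1.04 times.

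**Figure D1:**
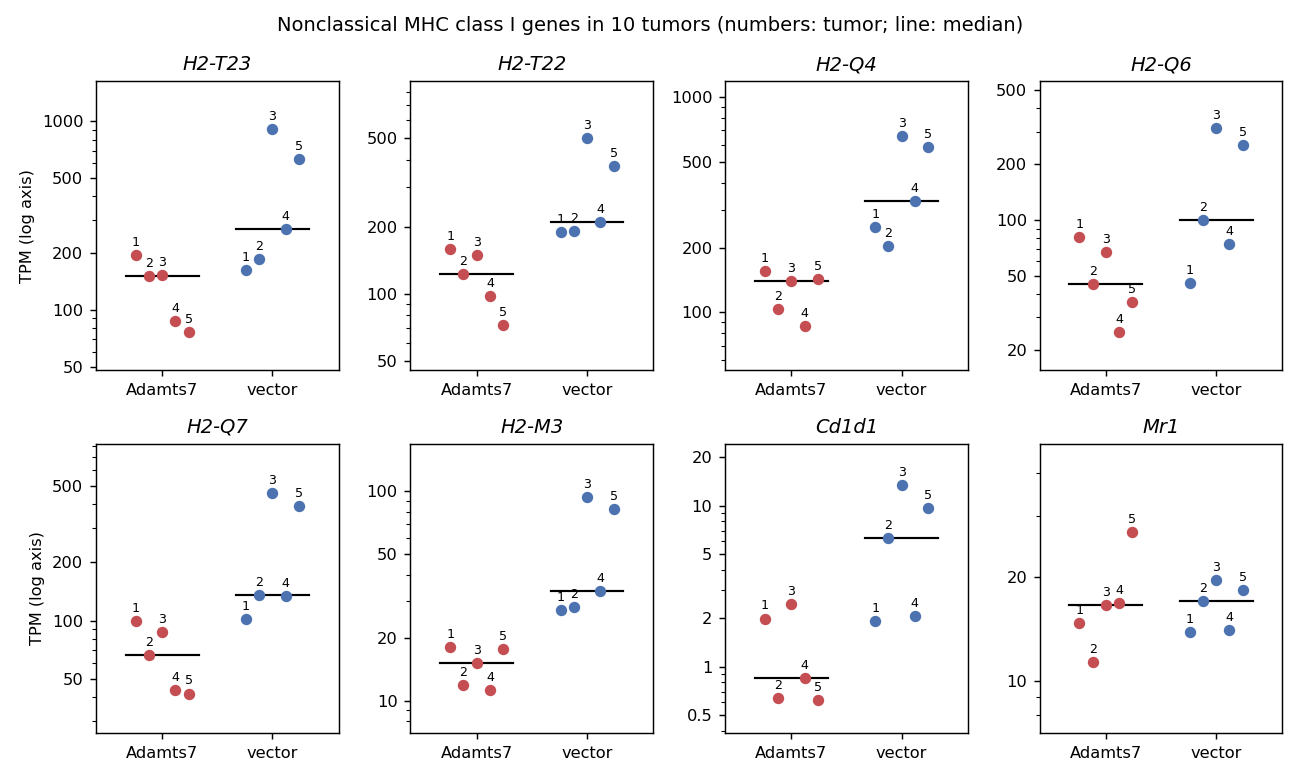
Level of each member in TPM (log axis) in the 5 Adamts7 tumors (left, red) and the 5 vector tumors (right, blue). Points carry the tumor number and lines are medians. Vector tumors 3 and 5 are the highest of all tumors in every panel but that of Mr1, where the tumor labelled Adamts7 5 is highest at 26.9 TPM.

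H2-T23 encodes the heavy chain of Qa-1, which shows a leader peptide of other class I chains to the inhibitory receptor pair CD94 and NKG2A. It measured 196, 150, 154, 87.4 and 76.5 TPM in Adamts7 tumors 1 to 5, against 162, 187, 910, 269 and 635 TPM in vector tumors 1 to 5. Adamts7 tumor 1 lay above vector tumors 1 and 2, so the groups overlapped, and vector tumors 3 and 5 were far above the rest. The means were 133 ± 50.0 TPM in Adamts7 tumors and 432 ± 327 TPM in vector tumors (SD, n = 5 each), with a log2 fold change of -1.45 (95% interval -2.52 to -0.38, limma adjusted p = 0.161). The authors' deposited table gave -1.59 with an adjusted p of 0.0179.

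H2-T22 encodes a class I chain without a peptide that is a ligand of some gamma-delta T cell receptors. Adamts7 tumors 1 to 5 had 159, 123, 150, 98.1 and 72.8 TPM of H2-T22, against 190, 191, 500, 211 and 375 TPM in vector tumors 1 to 5. The groups did not overlap, with 159 TPM as the highest Adamts7 tumor and 190 TPM as the lowest vector tumor. The means were 120 ± 35.7 TPM in Adamts7 tumors and 293 ± 139 TPM in vector tumors (SD, n = 5 each), and the log2 fold change was -1.21 (95% interval -1.91 to -0.52, limma adjusted p = 0.110). Summed with its near copy H2-T10, H2-T22 was at 124 ± 36.3 TPM in Adamts7 tumors and 304 ± 144 TPM in vector tumors (SD, n = 5 each), with a log2 fold change of -1.22 (limma adjusted p = 0.108).

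The Q region gave 3 members. H2-Q4, which encodes the Qb-1 chain, came to 156, 104, 141, 86.3 and 143 TPM in Adamts7 tumors 1 to 5, against 250, 203, 659, 329 and 584 TPM in vector tumors 1 to 5. The groups did not overlap. The means of H2-Q4 were 126 ± 29.4 TPM in Adamts7 tumors and 405 ± 204 TPM in vector tumors (SD, n = 5 each), and its log2 fold change of -1.56 (95% interval -2.28 to -0.84) had the lowest limma adjusted p of the members, 0.0808. Without the tumor labelled Adamts7 5 it was called, at a log2 fold change of -1.61 (limma adjusted p = 0.0429), where 3.17% of tested genes were called lower. Over the settings tried, the limma adjusted p of H2-Q4 ran from 0.0187 to 0.221. H2-Q7 and H2-Q6 encode Qa-2 chains, which can be tied to the membrane by a lipid anchor.

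H2-Q7 stood at 99.7, 66.6, 87.7, 43.7 and 41.9 TPM in Adamts7 tumors 1 to 5, against 102, 135, 458, 134 and 394 TPM in vector tumors 1 to 5. The groups were separate by a narrow margin, 99.7 against 102 TPM. The means of H2-Q7 were 67.9 ± 25.8 TPM in Adamts7 tumors and 245 ± 168 TPM in vector tumors (SD, n = 5 each), with a log2 fold change of -1.64 (95% interval -2.63 to -0.66, limma adjusted p = 0.122). H2-Q6 measured 80.8, 45.4, 67.1, 24.9 and 36.3 TPM in Adamts7 tumors 1 to 5, against 45.9, 100 and 312 TPM in vector tumors 1 to 3 and 74.0 and 254 TPM in vector tumors 4 and 5. Here Adamts7 tumor 1 lay above vector tumors 1 and 4. The log2 fold change of H2-Q6 was -1.37 (95% interval -2.53 to -0.21, limma adjusted p = 0.197), the highest adjusted p of the 7 lower members.

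H2-Q6 and H2-Q7 summed were at 119 ± 48.2 TPM in Adamts7 tumors and 402 ± 286 TPM in vector tumors (SD, n = 5 each). The sums lay between 68.6 and 180 TPM in Adamts7 tumors and between 148 and 770 TPM in vector tumors, so the groups overlapped. The log2 fold change of the sum was -1.54 (limma adjusted p = 0.141). In every tumor H2-Q7 was above H2-Q6, by a ratio between 1.15 and 1.75 in Adamts7 tumors and between 1.35 and 2.22 in vector tumors.

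H2-M3 encodes a chain that shows peptides beginning with formylated methionine, as made by bacteria and mitochondria. It read 18.1, 11.9, 15.2, 11.2 and 17.8 TPM in Adamts7 tumors 1 to 5, against 27.0, 27.9, 94.0, 33.4 and 82.5 TPM in vector tumors 1 to 5. The groups did not overlap, and the Adamts7 tumors kept within 11.2 to 18.1 TPM. The means were 14.8 ± 3.21 TPM in Adamts7 tumors and 53.0 ± 32.5 TPM in vector tumors (SD, n = 5 each), with a log2 fold change of -1.58 (95% interval -2.38 to -0.78, limma adjusted p = 0.0907). H2-M3 was called with vector tumors 3 and 5 and the tumor labelled Adamts7 5 all left out, at a log2 fold change of -1.03 (limma adjusted p = 0.0279), and so was H2-Q4, at -1.10 (limma adjusted p = 0.0435). In that comparison 3.95% of tested genes were called lower. Over the settings tried, the limma adjusted p of H2-M3 ran from 0.0181 to 0.238, the lowest with tumor weights, where 6.26% of tested genes were called lower.

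Cd1d1 encodes CD1d, which shows lipids to natural killer T cells. It was the least abundant member, at 1.99, 0.640, 2.45, 0.850 and 0.620 TPM in Adamts7 tumors 1 to 5, against 1.93, 6.33, 13.5, 2.06 and 9.64 TPM in vector tumors 1 to 5. Adamts7 tumors 1 and 3 lay above vector tumor 1, so the groups overlapped. The means were 1.31 ± 0.851 TPM in Adamts7 tumors and 6.69 ± 4.97 TPM in vector tumors (SD, n = 5 each). The log2 fold change was -1.53 (95% interval -2.56 to -0.49, limma adjusted p = 0.140), which a pseudocount of 1 TPM makes smaller for so low a gene, and -2.09 with a pseudocount of 0.1 TPM (limma adjusted p = 0.130). The authors' deposited table gave -2.26 with an adjusted p of 0.00557.

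Mr1 encodes the chain that shows microbial vitamin B metabolites to mucosal-associated invariant T cells. It came to 14.7, 11.4, 16.6, 16.8 and 26.9 TPM in Adamts7 tumors 1 to 5, against 13.9, 17.0, 19.6, 14.1 and 18.3 TPM in vector tumors 1 to 5. The vector tumors lay inside the range of the Adamts7 tumors. The means were 17.3 ± 5.82 TPM in Adamts7 tumors and 16.6 ± 2.56 TPM in vector tumors (SD, n = 5 each), and the log2 fold change of 0.02 had a 95% interval of -0.44 to 0.47 (limma adjusted p = 0.974). The sign of Mr1 turned in 4 of the settings tried, without the tumor labelled Adamts7 5 (-0.15), without vector tumor 1 or 4 (-0.04 in each), and without vector tumors 3 and 5 and the tumor labelled Adamts7 5 (-0.02), and also in 44 of the 100 possible sets of day 45 tumors described below.

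Vector tumors 3 and 5 carried a large part of the differences. Without them, the log2 fold changes of the 7 lower members lay between -0.57, for H2-Q6, and -1.05, for H2-Q4, against -1.21 to -1.64 with all tumors. No member was called in that comparison, where the limma adjusted p of the 7 ran from 0.0929 for H2-M3 to 0.584 for H2-Q6, and 0.170% of tested genes were called lower. The 95% interval stayed below 0 for H2-T22, H2-Q4, H2-Q7 and H2-M3. Since the labels do not say which tumors were harvested at day 45, all 100 possible choices of 3 against 3 tumors were computed. Each gave a negative log2 fold change in each of these 7 members. For H2-T22, H2-Q4, H2-Q7 and H2-M3 that sign was fixed in advance, since their groups did not overlap. An effect of harvest day was not tested. Across those choices the value ran from -2.41 to -0.28 for H2-T23, from -2.21 to -0.80 for H2-Q4, from -2.25 to -0.75 for H2-M3 and from -0.36 to 0.37 for Mr1.

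**Figure D2:**
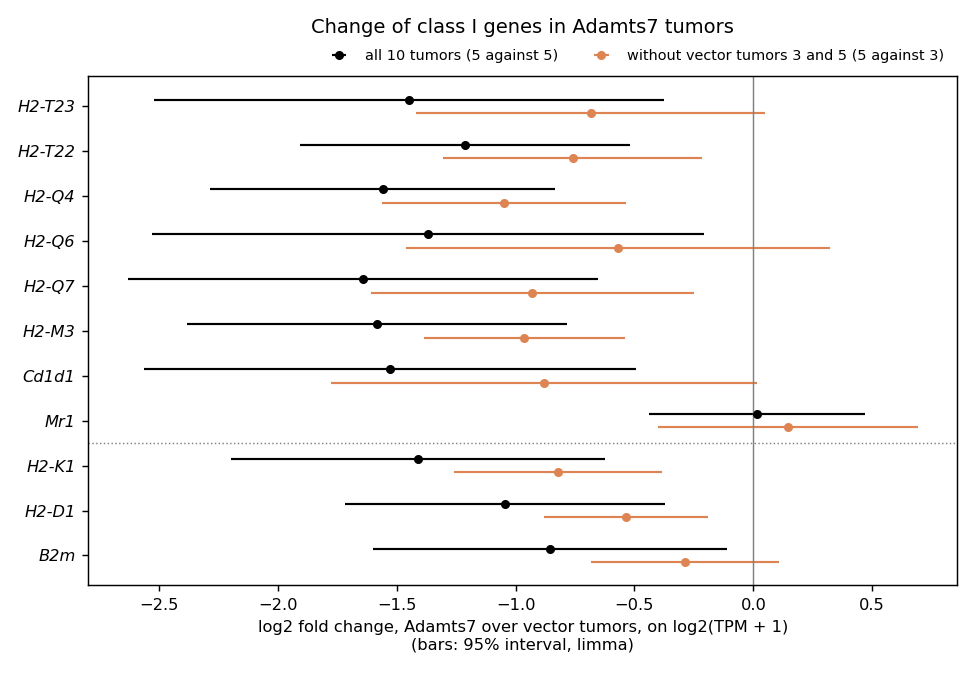
Log2 fold change of each member, of H2-K1, H2-D1 and of B2m (below the dotted line), Adamts7 over vector tumors, with 95% intervals from limma, for all 10 tumors (black) and without vector tumors 3 and 5 (orange). Points of all genes but Mr1 lie below 0 and move toward 0 without the 2 vector tumors, while Mr1 lies at 0.02 and 0.15.

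The order of the median levels over 10 tumors was H2-Q4, H2-T23 and H2-T22 at 180, 174 and 174 TPM, then H2-Q7 at 101, H2-Q6 at 70.6, H2-M3 at 22.6, Mr1 at 16.7 and Cd1d1 at 2.03 TPM. The first 3 do not stand apart, since H2-Q4 was above H2-T23 in 4 of 10 tumors and H2-T23 above H2-T22 in 7. H2-Q7 was above H2-Q6, H2-Q6 above H2-M3, and Mr1 above Cd1d1 in all 10 tumors. H2-M3 was above Mr1 in 7 of 10 tumors. By group medians H2-M3 came after Mr1 in the Adamts7 tumors, at 15.2 against 16.6 TPM, and before it in the vector tumors, at 33.4 against 17.0 TPM.

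The classical class I genes H2-K1 and H2-D1 were also lower on average, without overlap, and were not called. H2-K1 was at 1144 ± 252 TPM in Adamts7 tumors and 3409 ± 2000 TPM in vector tumors, and H2-D1 at 985 ± 159 TPM in Adamts7 tumors and 2228 ± 1145 TPM in vector tumors (SD, n = 5 each). Their log2 fold changes were -1.41 and -1.05 (limma adjusted p = 0.108 and 0.133). The 6 H2 members together made up 21.3%, 20.4%, 20.8%, 17.9% and 15.5% of the summed TPM of these 8 H2 heavy chains in Adamts7 tumors 1 to 5, against 19.5%, 20.9%, 22.7%, 21.6% and 22.5% in vector tumors 1 to 5. These shares overlapped between the groups.

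To compare each member with the classical chains, the fit over all genes was repeated on log2(TPM + 1) minus the mean of H2-K1 and H2-D1 in the same tumor. No H2 member and not Cd1d1 was called in either direction. Their log2 differences lay between -0.42 for H2-Q7 (95% interval -1.12 to 0.29, limma adjusted p = 0.255) and 0.01 for H2-T22 (95% interval -0.68 to 0.70, limma adjusted p = 0.967). These intervals leave room for differences from the classical chains in both directions. Mr1 was called higher relative to the classical chains, by 1.24 on the log2 scale (95% interval 0.45 to 2.04, limma adjusted p = 0.0251), in a fit that called 69.7% of tested genes higher and 0.360% lower. The Mr1 call was lost without Adamts7 tumor 2 (limma adjusted p = 0.0523), Adamts7 tumor 4 (adjusted p = 0.0672) or vector tumor 5 (adjusted p = 0.0668), and held over the other 7 single tumors left out. Without vector tumors 3 and 5 it was 0.82 (adjusted p = 0.0491), where 27.9% of tested genes were called higher. Without the tumor labelled Adamts7 5 as well, the Mr1 difference was 0.66 (adjusted p = 0.0480). The share of all genes called is not given for that fit or for those with a single tumor left out. The Mr1 calls there therefore cannot be set against it. With tumor weights the Mr1 difference was 0.64 (adjusted p = 0.0179), where 53.4% of tested genes were called higher and 0.792% lower. A pseudocount of 10 TPM called 91.8% of tested genes higher, Mr1 and Cd1d1 among them.

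**Figure D3:**
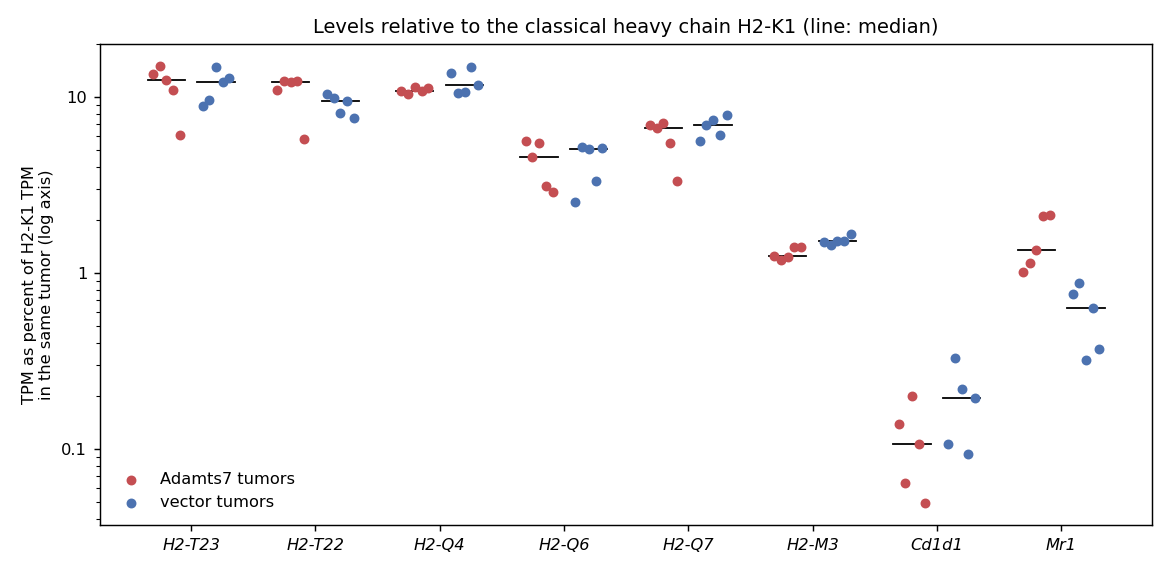
Level of each member as percent of the TPM of H2-K1 in the same tumor (log axis), Adamts7 tumors (red, left of each pair) and vector tumors (blue, right). Lines are medians. The groups overlap for all members but H2-M3, with 1.19% to 1.41% in the 5 Adamts7 tumors against 1.44% to 1.67% in the 5 vector tumors, and Mr1, with 1.02% to 2.14% in the 5 Adamts7 tumors against 0.320% to 0.878% in the 5 vector tumors.

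As percent of H2-K1, H2-Q4 reached at most 11.4% in the Adamts7 tumors and 14.9% in the vector tumors, and the groups overlapped. H2-T23 was lowest in the tumor labelled Adamts7 5, at 6.08%, and lay between 8.94% and 14.8% in the vector tumors. H2-M3, at 1.30% ± 0.103 in Adamts7 tumors and 1.53% ± 0.0833 in vector tumors (SD, n = 5 each), did not overlap on this ratio, as 0.282% of tested genes did not in that direction, and 42.4% in that of Mr1. In the fit relative to both classical chains H2-M3 was not called (log2 difference -0.36, limma adjusted p = 0.255). The light chain gene B2m was at 3256 ± 250 TPM in Adamts7 tumors and 6680 ± 3673 TPM in vector tumors (SD, n = 5 each), a log2 fold change of -0.85 (limma adjusted p = 0.204).

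As a description over 10 tumors, after subtracting each group's mean of log2(TPM + 1), Pearson's r lay between 0.656 and 0.978 for the 21 pairs among them, and between -0.0740 and 0.497 for the 7 pairs with Mr1. Without vector tumors 3 and 5 the 21 pairs ran from -0.00114 to 0.928 and the 7 pairs with Mr1 from -0.704, with H2-T22, to 0.437, with H2-M3. In the 8 tumors left, the closest pairs were H2-T23 with H2-Q7 (0.928) and H2-T22 with H2-Q7 (0.926), and H2-Q4 with H2-M3 reached 0.907. H2-Q4 and H2-M3 were further from H2-T22 there (0.293 and 0.106).

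The genes most like each member by the same measure, members aside, were Nlrc3, Socs1 and Dgka for H2-T23, Dalrd3, Rnf19b and Hk3 for H2-T22, and Gbp7, Iigp1 and Etv3 for H2-Q4. They were Sp110, P2ry14 and Klrk1 for H2-Q6, Sectm1a, Il21r and Calhm2 for H2-Q7, Carmil1, Tnfaip3 and Clec2d for H2-M3, Mcur1, Sirt7 and Slc30a1 for Cd1d1, and Sgk3, Klhl12 and Tax1bp1 for Mr1. Their r over 10 tumors lay between 0.965 (Slc30a1) and 0.994 (Carmil1), and between 0.930 (Slc30a1) and 0.997 (Sgk3) in the 8 tumors without vector tumors 3 and 5. They are the highest values among the 15276 tested genes once members, predicted genes, clone-like names and pseudogenes were left out, and are given as a description.

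Genes that supply and load peptides were also lower on average. The log2 fold change was below 0 in 13 of 13 genes of this list, and its median was -1.32 (-0.83 without vector tumors 3 and 5), beside -0.10 over all genes tested. In this list 9 of 13 separated the groups and 0 were called. Of all tested genes, 60.2% were negative, 3.78% separated the groups in this direction and 0.196% were called lower. Tap1 and Tap2, the peptide transporter of the endoplasmic reticulum, were at 68.8 ± 17.3 and 32.3 ± 8.24 TPM in Adamts7 tumors, against 182 ± 63.4 and 85.9 ± 28.2 TPM in vector tumors (SD, n = 5 each). Psmb9 and Psmb8, immunoproteasome subunits, had log2 fold changes of -1.61 and -1.32 (limma adjusted p = 0.0606 and 0.0681). Of the transcription and interferon list, 14 of 15 were negative, the median was -0.67 (-0.34 without vector tumors 3 and 5), 4 separated the groups and 0 were called. Nlrc5, the class I transactivator, stood at 33.1, 14.3, 25.7, 21.9 and 29.9 TPM in Adamts7 tumors 1 to 5, against 46.4, 62.9, 183, 59.1 and 150 TPM in vector tumors 1 to 5. Every Adamts7 tumor was below every vector tumor in Nlrc5 (log2 fold change -1.80, limma adjusted p = 0.0840). Irf1 and Irf8, interferon regulatory factors, had log2 fold changes of -1.64 and -1.59 (limma adjusted p = 0.0840 and 0.108).

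**Figure D4:**
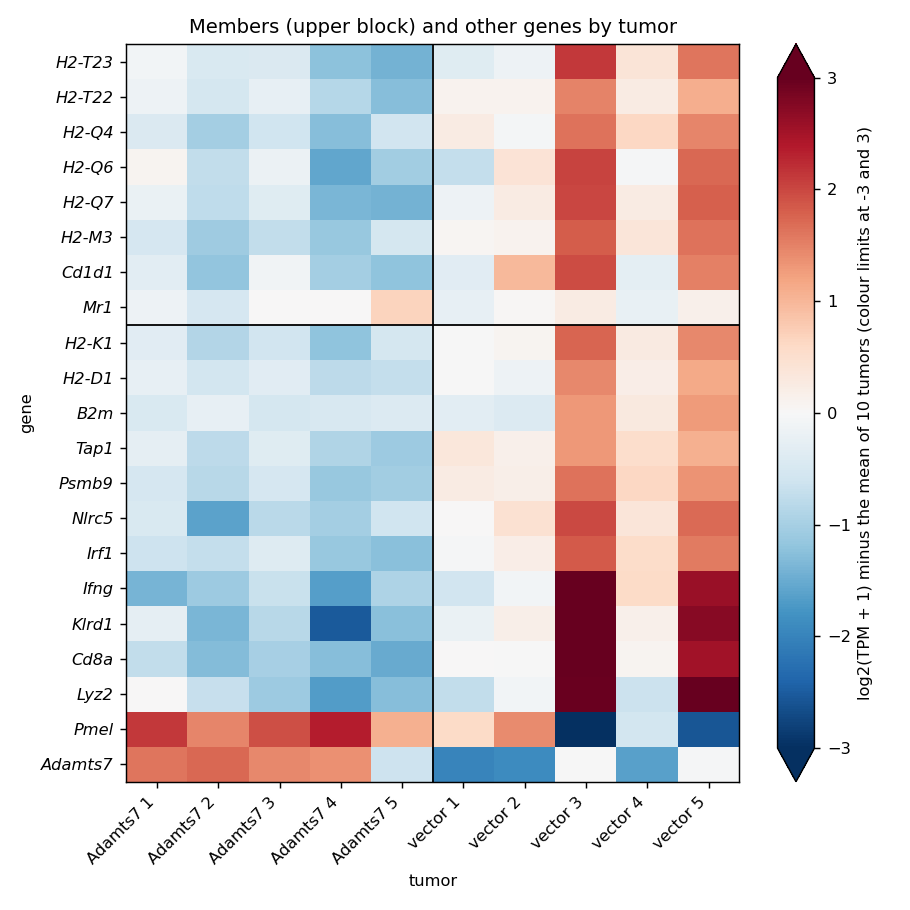
Log2(TPM + 1) minus the mean of the 10 tumors, for the 8 members (upper block) and 13 other genes, by tumor, Adamts7 tumors left of the line and vector tumors right of it. Vector tumors 3 and 5 are high in all rows but those of Mr1, Pmel and Adamts7, and Pmel is lowest in these 2 tumors, at 6.13 and 274 TPM.

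A list of 8 receptor genes summed to 15.4 to 65.2 TPM in Adamts7 tumors and 36.7 to 432 TPM in vector tumors. It is not particular to the members, since it also holds Klrk1, Cd8a, Cd8b1, Lilrb4a and Pirb. The highest Adamts7 sum, in tumor 1, was above those of vector tumors 1, 2 and 4, and vector tumors 3 and 5 had the highest sums. Of the 8 receptor genes 8 were negative with a median of -1.89 (-0.86 without vector tumors 3 and 5), 3 separated the groups and 0 were called. The shares of all tested genes were 60.2% negative, 3.78% separated in this direction and 0.196% called lower. Klrd1, which encodes CD94, measured 4.41, 1.51, 2.68, 0.150 and 1.75 TPM in Adamts7 tumors 1 to 5, against 4.70, 6.43, 66.2, 6.30 and 42.7 TPM in vector tumors 1 to 5. Its partner gene Klrc1, for NKG2A, ran from 0.790 to 2.01 TPM in Adamts7 tumors and from 1.28 to 28.2 TPM in vector tumors. Klrk1, for NKG2D, and the CD8 genes Cd8a and Cd8b1 had log2 fold changes of -2.29, -2.34 and -2.07 (limma adjusted p = 0.140, 0.121 and 0.126).

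Genes of the T cells that CD1d, MR1 and H2-T22 serve had their highest values in vector tumors 3 and 5 where they were tested, Sox13 aside. Zbtb16, the transcription factor of natural killer T and mucosal-associated invariant T cells, was at or below 0.910 TPM in every tumor and was not tested. It ran from 0 to 0.230 TPM in Adamts7 tumors and from 0.340 to 0.910 TPM in vector tumors. Of 11 listed genes of these cells, 8 had values and 3 were tested. Those 3 had a median log2 fold change of -1.39 (-0.57 without vector tumors 3 and 5), with 0 called. They were Il18r1 (-1.67), Slamf6 (-1.39) and Klrb1c (-0.97). In vector tumor 3 these 3 reached 11.6, 11.4 and 8.13 TPM, against at most 0.900, 2.60 and 1.66 TPM in any Adamts7 tumor. They are not particular to these cells, and Klrb1c is also among the natural killer cell markers. The T cell receptor genes Trav1 and Trav11d of this list were not tested. Trav1 was above 0 only in Adamts7 tumor 3 (2.73 TPM) and vector tumor 3 (1.57 TPM), and Trav11d only in vector tumor 2 (1.61 TPM). Of 11 listed gamma-delta T cell genes, 6 had values. The 3 tested were Trgc2 (-1.52), Trgc4 (-1.11) and Sox13 (-0.14), with 0 called. Their median was -1.11, or -0.26 without vector tumors 3 and 5. Trgc2 was at most 1.02 TPM in an Adamts7 tumor and 12.9 TPM in vector tumor 3. Trdc, the delta chain constant region, was not tested. It ran from 0.030 to 0.330 TPM in Adamts7 tumors and from 0.120 to 1.33 TPM in vector tumors.

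The lipid loading list of CD1d had a median log2 fold change of -0.09 beside -0.10 over all genes. Without vector tumors 3 and 5 the list median was 0.07. With all tumors 7 of 10 genes were negative, against 60.2% of tested genes, and 0 were called. Mttp, a lipid transfer protein, was at 4.33 ± 0.547 TPM in Adamts7 tumors and 8.69 ± 2.37 TPM in vector tumors (SD, n = 5 each), and the groups did not overlap (log2 fold change -0.84, limma adjusted p = 0.0840). Ctsl, an endosomal protease, had a log2 fold change of -0.48 (adjusted p = 0.135), Ap3d1, a sorting adaptor subunit, of 0.46 (adjusted p = 0.152), and Ctss of -1.45 (adjusted p = 0.270).

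The median log2 fold change was negative in each of the 5 lists of immune cell markers with all tumors, but not in the macrophage and monocyte list without vector tumors 3 and 5. The 14 T cell markers, among them Cd3g, Trbc2 and Lck, summed to 29.2 to 66.1 TPM in Adamts7 tumors and 66.1 to 627 TPM in vector tumors. Of these, 14 of 14 were negative, as were 60.2% of all tested genes. Their median log2 fold change was -1.69, or -0.72 without vector tumors 3 and 5. The 8 natural killer cell markers, among them Gzma, summed to 2.64 to 17.1 TPM in Adamts7 tumors and 8.50 to 112 TPM in vector tumors, and the 10 macrophage and monocyte markers, led by Lyz2, C1qa and C1qb, to 582 to 2423 TPM in Adamts7 tumors and 1072 to 6639 TPM in vector tumors. Of the macrophage and monocyte markers 8 of 10 were negative, while Cd68 and Mertk averaged 343 and 23.6 TPM in Adamts7 tumors, against 270 and 20.8 TPM in vector tumors. The median of that list was -0.71, or 0.03 without vector tumors 3 and 5, and the median of the natural killer cell list was -1.17, or -0.45 without them. The 8 dendritic cell markers summed to 14.9 to 37.3 TPM in Adamts7 tumors and 29.4 to 163 TPM in vector tumors, and the 5 B cell markers to 1.18 to 5.17 TPM in Adamts7 tumors and 3.69 to 36.6 TPM in vector tumors. Their medians were -1.02 and -1.07, or -0.45 and -0.33 without vector tumors 3 and 5. The 8 melanocyte markers, led by Dct, Pmel and Tyrp1, summed to 12767 to 23189 TPM in Adamts7 tumors and 313 to 16782 TPM in vector tumors. The lowest sums were in vector tumors 3 and 5. The median log2 fold change of the melanocyte list was 2.24, or 0.15 without these 2 tumors. Fibroblast and endothelial markers had medians of -0.13 and -0.23, or 0.19 and 0.04 without vector tumors 3 and 5. The adipocyte genes Fabp4 and Cfd summed with 3 others to 10.9 to 33.2 TPM in Adamts7 tumors and 11.5 to 172 TPM in vector tumors. The highest sums were in vector tumors 1 and 4, at 124 and 172 TPM. Fabp4 and Cfd, the 2 tested, had a median of -1.18, or -1.89 without vector tumors 3 and 5. The keratinocyte markers summed to at most 2.29 TPM in any tumor. No tested marker of these 10 lists was called, against 0.223% of tested genes. Tested were 7 of 8 dendritic cell, 2 of 5 B cell and 2 of 5 adipocyte markers, and no keratinocyte marker. All markers of the other lists were tested. The part of these cells in the levels of the members was not tested.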

How the data were processed

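RNA was sequenced from 10 tumors, 1 library each, with 5 per group by title. Per the labels' protocols, libraries had RNA spike-ins, poly(A) RNA was selected, cDNA primers carried molecular identifiers, and paired reads of 150 bases were demultiplexed with bcl2fastq 2.17. The expression values are log2(TPM + 1) per gene symbol as deposited by the authors, and RSEM and mm39 appear in the submitters' processing notes. The aligner, the annotation and the use of the identifiers are not given in the sources used here. Raised back to TPM, the values summed to between 995286 and 998019 per tumor. The authors' deposited comparison table holds per gene a signal (the mean of normalized values), log2 fold change and error, a test score and p-value, with DESeq2 named in the submitters' processing notes; symbols were paired with 28805 of its 30040 identifiers. The repertoire table was not used here.

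Genes averaging 1 TPM or more were fitted with limma 3.58.1 in R 4.3.3 after adding 1 TPM, with group as the only term and the prior variance following a trend. Adjusted p-values were taken over all 15276 tested genes, and the 8 members all passed the filter. The procedure was also tested on simulated data. No pair of tumors had identical values. Replicate numbers are in the titles, but no label says that they pair tumors. Tables were joined in Python 3.11.15 with pandas 2.3.3, and coding sequences were aligned with Biopython 1.88.

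The members and the gene lists were chosen with earlier results of these data known. Named genes are the members, up to 4 genes of each pathway list with the smallest p, the 3 genes most like each member, and up to 3 of the most abundant markers of each cell type. Klrc1, Zbtb16, Trdc, Trav1, Trav11d, Lilrb4a, Pirb, Cd68 and Mertk fall outside this rule and were chosen after their values were seen. Alternatives changed the pseudocount, the filter, the scaling or the variance model, added a replicate block or tumor weights, or used fewer tumors, possible day 45 sets, and sums of near-identical genes. One gene of the named set and one motif are not reported here. Promoter coordinates are of the older build GRCm38.p6 and were not set against coordinates of the files.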

Additional observations from a re-analysis of the deposited data

How the results depend on the processing

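The 7 lower members kept a negative log2 fold change in every setting tried. H2-Q4 and H2-M3 were called with tumor weights (-1.24 and -1.19, limma adjusted p = 0.0187 and 0.0181), giving 2 members called lower, as without vector tumors 3 and 5 and the tumor labelled Adamts7 5 (2); leaving out 1 tumor gave 0 to 1. Over all genes, 4 were called higher and 30 lower. Those called higher numbered 1 with a pseudocount of 10 TPM and 1 with no filter, 2 with a filter at a mean of 5 TPM, 8 with median-of-ratios scaling (21 lower), 10 with quantile normalization (20 lower), 8 without a variance trend, 263 with tumor weights, 2 without vector tumors 3 and 5, 197 without these and without Adamts7 tumor 5, and 0 to 171 leaving out 1 tumor. Those called lower numbered 11 with a pseudocount of 10 TPM, 9 with no filter, 956 with tumor weights, 603 without vector tumors 3 and 5 and the tumor labelled Adamts7 5, and 5 to 484 leaving out 1 tumor, highest without the tumor labelled Adamts7 5. With the replicate block 0 were called higher and 0 lower. The deviations of same-numbered tumors correlated between -0.278 and 0.263, and only number 3 matched its own number best. With so few tumors this cannot decide whether tumors of the same number share anything else.

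Genes lower without overlap numbered 578, against 349 with median-of-ratios scaling and 338 with quantile normalization. All genes had a median of -0.10, or 0.01 and 0.04 under these 2 scalings. Genes without overlap numbered 1118 without vector tumors 3 and 5, 2409 without these and without Adamts7 tumor 5, and 618 to 1452 leaving out 1 tumor. With fewer tumors this count could not fall, since groups that do not overlap stay apart. Relative to the classical chains, 2 members were called higher with a pseudocount of 10 TPM, where 91.8% of all genes were called higher, Cd1d1 turned to 0.71 and H2-M3 to 0.020, and 0 to 1 leaving out 1 tumor; 2 were called lower with tumor weights, H2-Q4 and H2-M3, against 0.792% of all genes. Signs there also turned for H2-T23 with tumor weights (0.20) and without vector tumors 3 and 5 and the tumor labelled Adamts7 5 (0.17), for H2-Q6 with tumor weights (0.38), without vector tumors 3 and 5 (0.11) and without all 3 (0.20), and for H2-T22 without vector tumors 3 and 5 (-0.082) and leaving out 1 tumor (-0.037 to 0.18). Sox13 turned to 0.11 with quantile normalization and 0.021 without the 3 tumors. Mr1 had -0.15 to 0.14 leaving out 1 tumor and -0.021 without the 3 tumors. The cause of these changes was not tested. Cd1d1 has no value with the filter at 5 TPM. TPM gives no depth, so no counting limit can be given for the low genes Cd1d1 and Klrd1.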

Other observations

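Other class I genes outside the 8 members were also measured. H2-M2, a further gene of the M region, had values of 1.61, 0.690, 2.00, 0.850 and 3.21 TPM across Adamts7 tumors 1 to 5, against 1.21, 5.30, 75.4, 1.42 and 57.3 TPM in vector tumors 1 to 5. Its high values were in vector tumors 3 and 5, the groups overlapped, and it was not called (log2 fold change -2.10, limma adjusted p = 0.261). H2-T10 was at 3.72 ± 1.25 TPM in Adamts7 tumors and 11.1 ± 5.38 TPM in vector tumors, without overlap, and H2-T24 at 6.61 ± 2.92 TPM in Adamts7 tumors and 13.9 ± 6.72 TPM in vector tumors (SD, n = 5 each). These 3 were the only tested genes of 11 further H2 or CD1 heavy chains in the table, with log2 fold changes of -1.29 for H2-T10 and -0.92 for H2-T24 and none called by limma.

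Class I-like genes that bind no peptide went in different directions. Of 6 tested, 4 were negative and 2 positive, and none was called. Of all tested genes 60.2% were negative. Hfe, which regulates iron uptake, was at 36.6 ± 9.35 TPM in Adamts7 tumors and 27.0 ± 4.61 TPM in vector tumors (SD, n = 5 each). Procr, the endothelial protein C receptor, was at 3.64 ± 1.90 TPM in Adamts7 tumors and 14.2 ± 13.4 TPM in vector tumors (SD, n = 5 each). Procr was highest in vector tumors 3 and 5, at 27.0 and 30.4 TPM, and the groups overlapped. Mill2 was at 5.22 ± 2.01 TPM in Adamts7 tumors and 12.4 ± 4.34 TPM in vector tumors, without overlap (log2 fold change -1.12, limma adjusted p = 0.122). Raet1d, a ligand of NKG2D, was at 2.69 ± 0.635 TPM in Adamts7 tumors and 7.12 ± 4.09 TPM in vector tumors (SD, n = 5 each) (limma adjusted p = 0.154).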
